A study of Mus musculus with 7 samples.

Results

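The genes described here are 4 Morc genes (Morc1, Morc2a, Morc3 and Morc4) and 6 other genes whose products silence retroelements (Trim28, Setdb1, Zfp809, Atrx, Daxx and Mphosph8). They were followed in J-1 mouse embryonic stem cells with lowered Mettl3 RNA. Its product, METTL3, is the enzyme that writes N6-methyladenosine (m6A) into messenger RNA. The genes were found as the probe sets whose symbol in the array platform's annotation is exactly one of these 10 names, which gave 260 probe sets of 1201338 on the array. The set was put together with earlier results of these data in view, among them a lower value of Morc1 in the knockdown cells. Differences of the 10 genes from the control are therefore given as descriptions with no p-value. The contrast of the hairpins with each other was tested, on the premise that it played no part in the choice. The values behind the choice are not recorded in full.

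Cells of 1 line, J-1, were infected with lentiviruses and grown in full medium, and total RNA was hybridised to mouse exon arrays, 1 array per sample. Mettl3 shRNA #1 (hairpin 1) was used in 2 samples, Mettl3 shRNA #2 (hairpin 2) in another 2, and luciferase shRNA, against an insect gene that mouse cells lack, in 3 control samples. All groups, the control included, carry a lentivirus. Nothing in the labels tells separate cultures from repeats of a single one, so p-values and intervals cover the spread among these 7 arrays only, and that spread may be technical.

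Retroelements are copies of virus-like and other mobile sequences that fill much of the mouse genome. In embryonic stem cells many are held silent by histone H3 lysine 9 methylation: zinc finger proteins of the KRAB type bind a retroelement, TRIM28 binds the zinc finger protein, and SETDB1, brought by TRIM28, methylates the histone. ATRX and DAXX place the histone variant H3.3 in such regions, the HUSH complex spreads and holds the methylation, and MORC proteins are ATPases that act in compacting silent chromatin.

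A gene value is the median, on each array, of the log2 values of the gene's probe sets that passed a filter on dim probe sets. Values are on the log2 scale and serve to compare arrays within a gene, since probe sets differ in brightness for technical reasons. All 10 genes were measured, and 254 of their 260 probe sets passed the filter: 31 of 32 for Morc1, 48 of 49 for Atrx, 20 of 24 for Morc4 and every probe set of the other 7 genes. The filter used the mean over all 7 arrays and was met by each gene. Mettl3 itself was at 8.97 and 8.67 with hairpin 1, 8.71 and 8.66 with hairpin 2, and 10.38, 10.46 and 10.14 with luciferase, so all 4 knockdown arrays lay below all 3 controls (log2 difference -1.57 ± 0.105, SE, limma adjusted p = 0.000116). The 10 markers of embryonic stem cells, which include Pou5f1, Sox2 and Nanog, were all measured and none passed the test. Their mean value was 11.89 to 12.06 on the knockdown arrays and 11.97 to 12.11 on the luciferase arrays. The median difference of the 10 markers was -0.06. In 3 of them all 4 knockdown arrays lay below all 3 controls, as in 8.4% of all genes, and in none did they all lie above, against 13.4%. Dppa5a had the smallest p (-0.27, limma adjusted p = 0.0892). Of 14 measured markers of fibroblasts, which would mark feeder cells, 2 genes of contractile proteins rose, Acta2 (log2 difference 1.07, limma adjusted p = 0.000482) and Tagln (0.78, adjusted p = 0.000865, or 0.77 and 0.0721 when dim probe sets were included). Of the 14 genes, 4 were higher, these 2 included, and the others were lower, with a median difference of -0.13. The 4 collagen genes were all lower and none passed. The mean of the 14 was 7.16 to 7.42 on the knockdown arrays and 7.20 to 7.28 on the luciferase arrays. The part of such cells in the results was not tested, and in bulk RNA fewer cells of a type and less RNA per cell cannot be told apart.

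Morc1 was the one gene of the 10 with a large difference. Its protein is needed in male germ cells of the mouse to silence retroelements, and the gene lies on chromosome 16. Its value was 9.24 and 9.03 with hairpin 1, 9.05 and 9.17 with hairpin 2, and 10.28, 10.65 and 10.10 with luciferase. The lowest control array was thus 0.86 above the highest knockdown array, and luciferase replicate 2 was the highest of the 3 controls. The mean of both hairpins lay 1.22 below luciferase on the log2 scale (-1.22 ± 0.126, SE, 95% interval -1.50 to -0.94), a 2.33-fold lower level. The median fell on probe set 4493297 on every knockdown array and on probe set 4356501 on every luciferase array. The gap of 0.86, the difference and its interval thus compare different probe sets. Within these probe sets the differences were -1.03 and -1.53, and the median over the 31 kept probe sets was -1.18. With hairpin 1 the difference in gene value was -1.21 (95% interval -1.54 to -0.87) and with hairpin 2 it was -1.23 (95% interval -1.57 to -0.89). With the mean of the probe sets in place of the median they were -0.96 and -1.29. Without luciferase replicate 2 the difference of both hairpins was -1.07.

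The 9 other genes differed far less from the control. Their differences ranged from -0.32 to 0.15 on the log2 scale for the mean of both hairpins. Among all 16353 genes tested, 7.9% were called at a limma adjusted p below 0.05 for both hairpins against luciferase, 5.89% for hairpin 1 and 3.79% for hairpin 2. Among the 10 genes, 1 was called in each of these 3 comparisons, Morc1, whose lower value was known when the set was put together. The calls for each hairpin rest on the same 3 luciferase arrays. Under the alternatives the count was 1 or 2 of 10 for both hairpins and for hairpin 1, and 0 or 1 for hairpin 2, with 0 when dim probe sets were included (Morc1 at -1.26). Nothing is read from these counts, since the values that gave them also bore on the choice. The median difference of the 10 genes was -0.04 and that of the 9 without Morc1 was 0.00, as was the median over all genes.

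**Figure D1:**
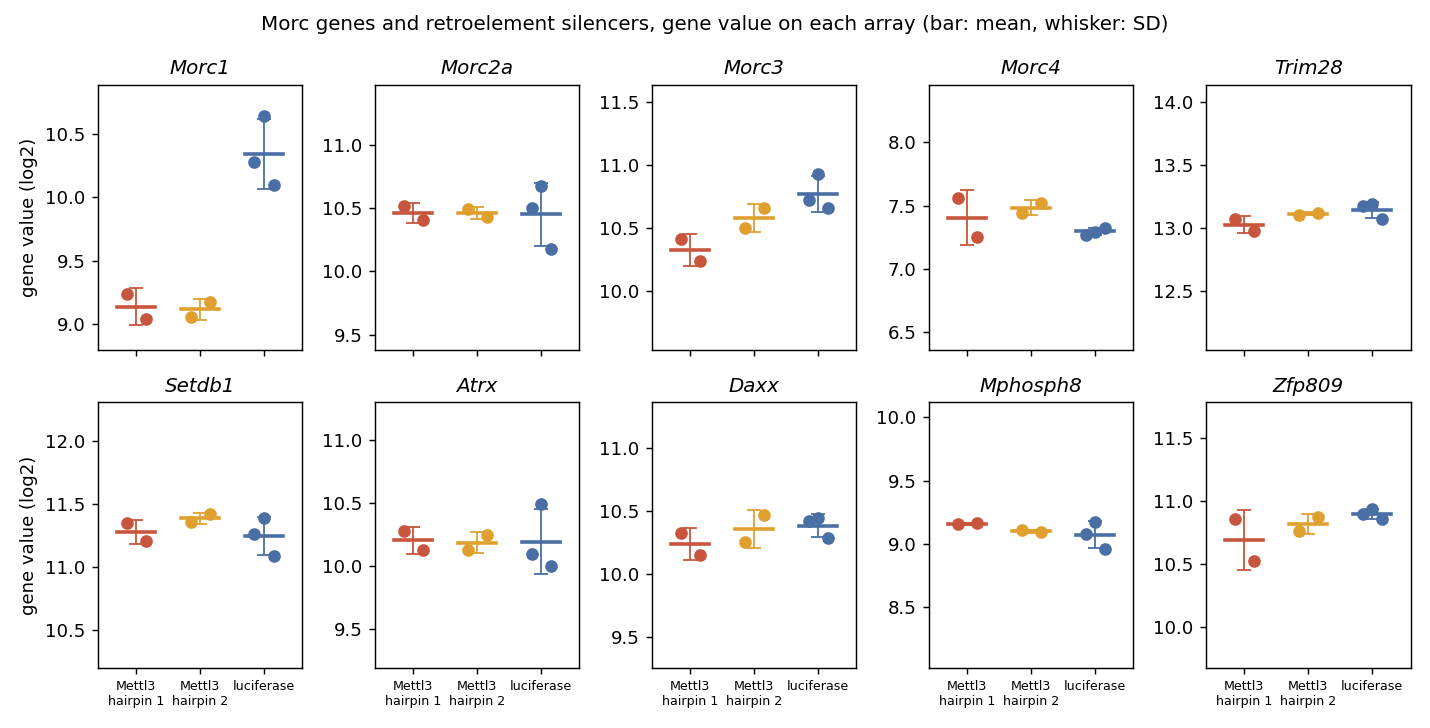
Gene value (log2, vertical axis) of each of the 10 genes on every array, with hairpin 1 (2 arrays), hairpin 2 (2 arrays) and luciferase (3 arrays) from left to right; points are arrays, bars are group means and whiskers are the SD. Every panel spans the same range of 2.1 units around its own midpoint, and the groups stand clearly apart for Morc1, at 9.03 to 9.24 with the Mettl3 hairpins and 10.10 to 10.65 with luciferase.

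Morc3 came next in size. It encodes a MORC ATPase that binds methylated histone H3 and represses endogenous retroviruses in mouse embryonic stem cells, and it also lies on chromosome 16. Its value was 10.41 and 10.24 with hairpin 1, 10.50 and 10.66 with hairpin 2, and 10.72, 10.93 and 10.66 with luciferase. The knockdown arrays lay below the control arrays, but the highest of them (10.659) and luciferase replicate 3 (10.662) were nearly equal. The difference was -0.32 ± 0.095 (SE, 95% interval -0.53 to -0.11) for both hairpins, -0.45 (95% interval -0.70 to -0.19) for hairpin 1 and -0.19 (95% interval -0.45 to 0.06) for hairpin 2. The median fell between different probe sets on different arrays, so these values compare different probe sets, as for Morc1. The median of the differences within its 22 kept probe sets was smaller: -0.18 for both hairpins, -0.26 for hairpin 1 and -0.09 for hairpin 2. Under the alternatives the difference for both hairpins was -0.37 (after centring) to -0.16 (with a median polish of the probe sets).

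Among all genes, 8.4% had all 4 knockdown arrays below all 3 luciferase arrays and 13.4% had them all above. Of the 10 genes, Morc1 and Morc3 lay below and none lay above.

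The other pair of Morc genes showed no such separation. Morc2a, on chromosome 11, encodes an ATPase that works with the HUSH complex. It was at 10.52 and 10.41 with hairpin 1, 10.49 and 10.43 with hairpin 2, and 10.50, 10.67 and 10.18 with luciferase. All 4 knockdown arrays lay between the highest and the lowest control array, and the difference was 0.01 (95% interval -0.24 to 0.26). Morc4, an X-linked gene for a further MORC ATPase, was at 7.56 and 7.25 with hairpin 1, 7.44 and 7.52 with hairpin 2, and 7.26, 7.29 and 7.33 with luciferase. Both hairpin 2 arrays were above the control arrays, whereas those of hairpin 1 stood on either side of them. The difference was 0.15 (95% interval -0.05 to 0.35). Morc4 had the dimmest probe sets of the 10 genes: 8 of its 24 passed the stricter filter.

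**Figure D2:**
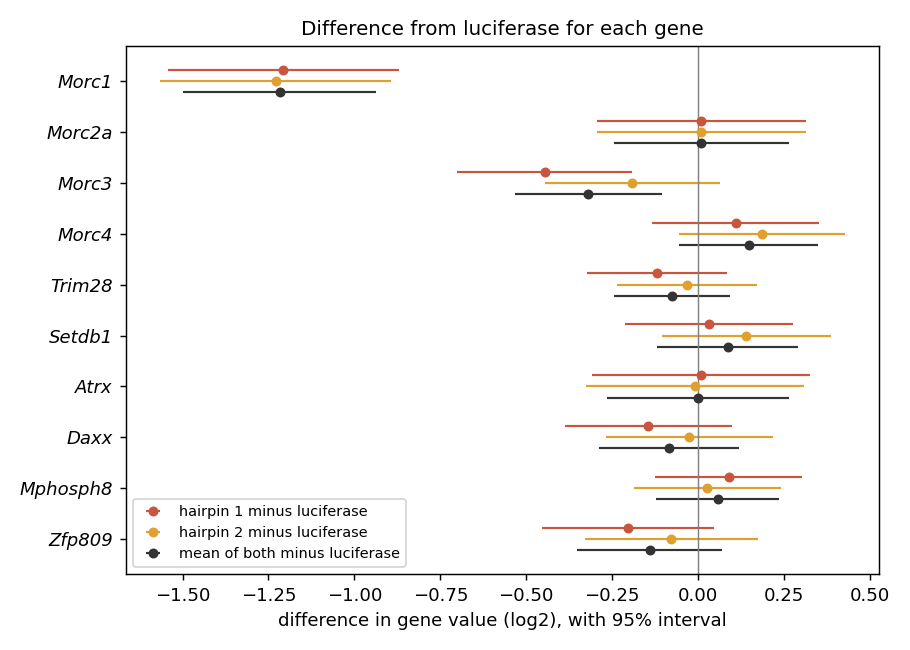
Difference in gene value from luciferase (log2, horizontal axis) for each gene, with hairpin 1, hairpin 2 and their mean from top to bottom within a gene; points are limma estimates and lines are 95% intervals, not adjusted for the number of genes. With the median of the probe sets as gene value Morc1 stands at -1.21, -1.23 and -1.22, and the means of the other 9 genes lie between -0.32 and 0.15.

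The genes of the KRAB zinc finger route to H3 lysine 9 methylation were near the control. Trim28, on chromosome 7, encodes the corepressor that KRAB zinc finger proteins recruit. Its value was 13.07 and 12.98 with hairpin 1, 13.10 and 13.12 with hairpin 2, and 13.17, 13.19 and 13.07 with luciferase. The hairpin 1 arrays were at or below the lowest control, those of hairpin 2 lay among the controls, and the difference was -0.08 (95% interval -0.25 to 0.09). Setdb1, on chromosome 3, encodes the methyltransferase of this route. It was at 11.34 and 11.21 with hairpin 1, 11.36 and 11.42 with hairpin 2, and 11.26, 11.39 and 11.09 with luciferase. The groups overlapped, and the difference was 0.09 (95% interval -0.12 to 0.29). The median of the differences within its 27 kept probe sets was 0.13 (0.07 with hairpin 1 and 0.19 with hairpin 2). Zfp809, on chromosome 9, encodes a KRAB zinc finger protein that recognises the primer binding site of murine leukaemia viruses in embryonic stem cells. It was at 10.86 and 10.52 with hairpin 1, 10.76 and 10.87 with hairpin 2, and 10.89, 10.93 and 10.85 with luciferase. One array, hairpin 1 replicate 2, was the lowest, and the difference was -0.14 (95% interval -0.35 to 0.07). Without that array the hairpin 1 difference of Zfp809 was -0.04, against -0.20 with it.

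The H3.3 loading pair was also near the control. The X-linked gene Atrx encodes a chromatin remodeller. It was at 10.28 and 10.13 with hairpin 1, 10.13 and 10.25 with hairpin 2, and 10.09, 10.49 and 10.003 with luciferase. Luciferase replicate 2 was the highest of the 7 arrays, as for Morc1, Morc2a, Morc3, Trim28, Mphosph8 and Zfp809, and the difference was 0.00 (95% interval -0.26 to 0.26). The median gene value of that array (8.22) was within the range of the others (8.17 to 8.30). Daxx, on chromosome 17, encodes the H3.3 chaperone. It was at 10.33 and 10.15 with hairpin 1, 10.25 and 10.47 with hairpin 2, and 10.42, 10.44 and 10.28 with luciferase, with overlapping groups and a difference of -0.08 (95% interval -0.29 to 0.12). Mphosph8, on chromosome 14, encodes the HUSH subunit that binds methylated H3 lysine 9. It was at 9.15 and 9.17 with hairpin 1, 9.11 and 9.09 with hairpin 2, and 9.08, 9.18 and 8.96 with luciferase. The knockdown arrays all fell within the range of the controls, and the difference was 0.06 (95% interval -0.12 to 0.24).

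The exon array has probe sets for single exons, so the breadth of a difference within a gene can be seen. Of the 31 kept probe sets of Morc1, all were lower on average with the hairpins, 30 by at least 0.5 and 20 by at least 1 on the log2 scale. In 29 of them all 4 knockdown arrays lay below all 3 luciferase arrays, and in the other 2 the ranges overlapped. Among all 229811 kept probe sets 5.94% lay below in this way and 12.2% lay above. Of the 229811, 105479 were lower on average, 3944 by at least 0.5 and 228 by at least 1. Probe sets of 1 gene report on the same RNA of the same arrays and are not replicates.

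The probe set of Morc1 with the largest difference, 4463156, was at 7.79 and 8.36 with hairpin 1, 7.44 and 7.39 with hairpin 2, and 9.48, 9.42 and 9.12 with luciferase. The brightest, 4734688, was at 11.51 and 11.20 with hairpin 1, 10.79 and 11.02 with hairpin 2, and 12.48, 12.69 and 12.32 with luciferase. The smallest difference was that of probe set 5536896, at 7.89 and 7.94 with hairpin 1, 7.48 and 7.53 with hairpin 2, and 8.13, 8.36 and 7.91 with luciferase. The knockdown arrays were thus well separated from the controls in the first pair, and in the third hairpin 1 replicate 2 overlapped with luciferase replicate 3. The 10 brightest probe sets of Morc1 had a median difference of -1.36 and the 10 dimmest one of -0.84.

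**Figure D3:**
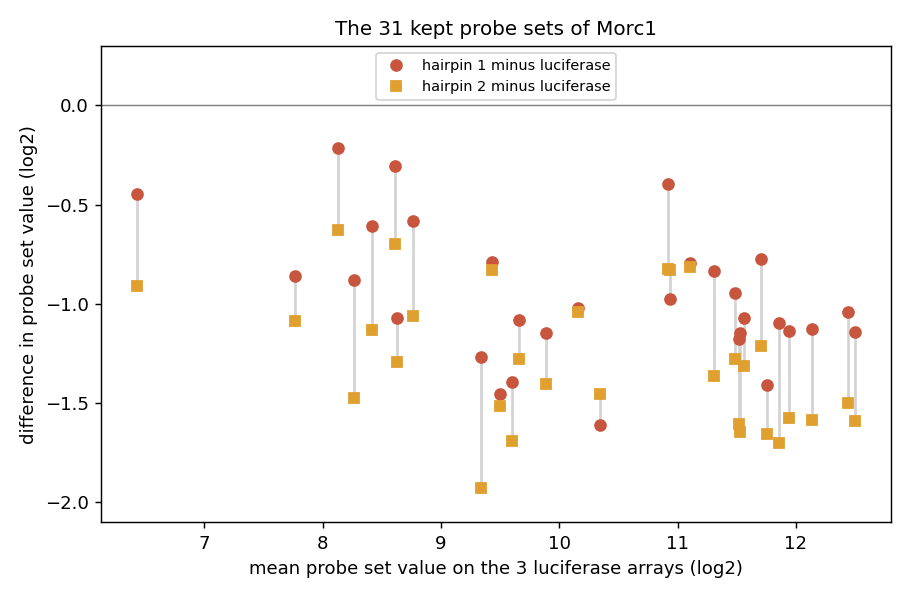
Difference from luciferase (log2, vertical axis) of each of the 31 kept probe sets of Morc1 against its mean on the 3 luciferase arrays (log2, horizontal axis); circles are hairpin 1, squares are hairpin 2 and a grey line joins the values of 1 probe set. All points lie below 0, and for 29 probe sets the hairpin 2 value is the lower one.

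In the other genes a smaller part of the probe sets stood apart from the controls than in Morc1. Over all kept probe sets 5.94% lay below and 12.2% above. The share below was larger than this in Morc3 (22.7%) and Trim28 (16.7%). The share above was larger in Setdb1, Morc4, Atrx and Mphosph8. Probe sets of a gene are not replicates, so these shares are descriptions. Over all 229811 kept probe sets 105479 were lower on average and 124332 higher. Morc3 had all 22 kept probe sets lower on average, none by 0.5 or more, and 5 of them with all knockdown arrays below the controls. Trim28 had 4 of 24 below and 1 above, and Morc4 had 1 of 20 below and 4 above. Setdb1 had 8 of 27 and Atrx 8 of 48 above the controls, with none below in either gene. Mphosph8 had 4 of 26 above, Daxx 1 of 15 and Morc2a 1 of 33, with none below, and the 8 probe sets of Zfp809 all overlapped. In Setdb1, 2 probe sets were higher by at least 0.5, and 1 was in Morc4. For Setdb1 the higher of them, 4426976, was at 7.93 and 8.03 with hairpin 1, 8.12 and 8.33 with hairpin 2, and 7.73, 7.62 and 7.36 with luciferase.

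**Figure D4:**
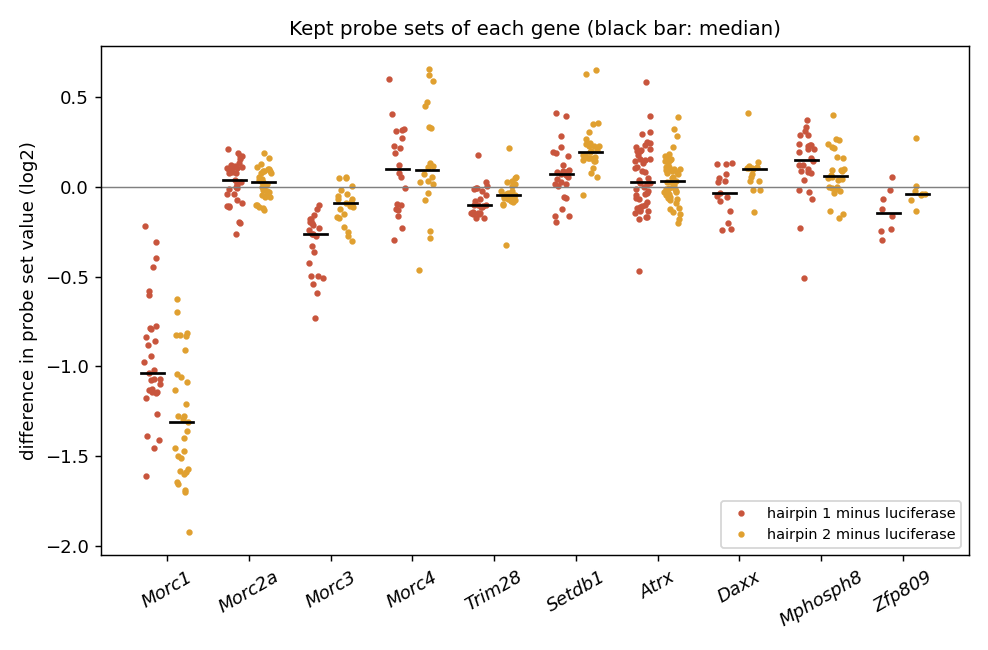
Difference from luciferase (log2, vertical axis) of every kept probe set of the 10 genes, with hairpin 1 left and hairpin 2 right within a gene; points are probe sets, spread sideways for sight, and black bars are medians. Morc1 has medians of -1.04 and -1.31, and the medians of the other genes lie between -0.26 and 0.19.

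Whether the hairpins differed from each other was tested. The estimate of this contrast does not use the luciferase values, but the 3 luciferase arrays enter the estimate of the spread. For hairpin 1 against hairpin 2, 17 of 16353 genes were called (0.104%), and none of the 10 genes was among them, nor was any at an unadjusted limma p below 0.05. The count of 17 was 0 to 4 when 1 array was left out, a luciferase array included, 2 with only the 4 hairpin arrays, and 0 (no filter) to 79 (mean of probe sets) over the other alternatives, with none of the 10 genes called in any. The difference of Morc1 was 0.02 (95% interval -0.35 to 0.39, limma adjusted p = 0.987). This is the difference of a single probe set, 4493297, on which the median fell on every hairpin array. The difference of Morc3 was -0.25 (95% interval -0.53 to 0.02, adjusted p = 0.612), and the other 8 lay between -0.13 and 0.06. The intervals leave room for differences of about the size of their bounds. The test of unequal change among the probe sets of a gene (limma's diffSplice), for hairpin 1 against hairpin 2, called 9 genes of 16353 and none of the 10, with unadjusted p-values of 0.193 to 0.984 for the 10 genes.

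For Morc1 the comparison of the hairpins depended on how probe sets were summarised. With the mean of the probe sets in place of the median, Morc1 was at 9.35 and 9.22 with hairpin 1, 8.92 and 9.0004 with hairpin 2, and 10.29, 10.35 and 10.11 with luciferase. The hairpin 2 arrays were then below those of hairpin 1, by 0.33 (95% interval 0.12 to 0.53, unadjusted p = 0.00558, limma adjusted p = 0.202). With a median polish it was 0.41 (95% interval 0.21 to 0.62, unadjusted p = 0.00165, limma adjusted p = 0.108). Both hairpin 2 arrays were below both hairpin 1 arrays in 21 of the 31 probe sets of Morc1 and in none above. Over all kept probe sets 17.9% lay below in this way and 20.1% above. The median of the probe set differences was 0.41 for Morc1, whereas the difference of the medians was 0.02. The latter came from probe set 4493297 alone, since the median fell on it on every hairpin array. No alternative called the difference of Morc1 between the hairpins. Under these 2 summaries the differences from luciferase were -0.96 with hairpin 1 (both summaries), and -1.29 and -1.37 with hairpin 2.

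Morc3 ran the other way: both hairpin 2 arrays were above both hairpin 1 arrays in 15 of its 22 probe sets and below in none. In Setdb1 this held for 15 of 27 probe sets, also with none below, and in Mphosph8 the hairpin 2 arrays were below in 13 of 26 and above in 2. Over all kept probe sets the shares were 17.9% below and 20.1% above. By gene value the differences between the hairpins were -0.25 for Morc3, -0.11 for Setdb1 and 0.06 for Mphosph8, and none was called.

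Genes with values over the 7 arrays most like those of Morc1 were ranked by the root mean square distance between values. Each value was taken relative to the gene's luciferase mean. The ranking passed over symbols that mark predicted genes, clones, DNA segments, receptors for smell and pheromones, or small RNAs. A gene of these kinds may thus lie nearer to Morc1 than those named. In order of distance the 5 nearest of the ranked genes were Emp1 (0.207), Ddc (0.209), Rpl39l (0.227), Trap1a (0.256) and Mael (0.270). Emp1 encodes an epithelial membrane protein, Ddc the aromatic amino acid decarboxylase, Rpl39l a ribosomal protein paralogue, Trap1a a tumour antigen, and Mael a protein of the piRNA pathway, which guards male germ cells against retroelements. The first 4 lie on chromosomes 6, 11, 16 and X, in that order. Emp1, the nearest, was at 9.53 and 9.285 with hairpin 1, 9.70 and 9.79 with hairpin 2, and 10.67, 10.81 and 10.34 with luciferase. Mael, the most distant of the 5 and on chromosome 1, was at 9.07 and 8.58 with hairpin 1, 9.13 and 9.17 with hairpin 2, and 9.89, 10.09 and 9.80 with luciferase. Its knockdown arrays all lay below the controls, as those of the other 4 genes did. The differences of these 5 genes for both hairpins were -1.14 (Rpl39l) to -0.94 (Mael). They were picked by a measure that includes the difference from luciferase, so these values are a description.

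Other genes of retroelement silencing were taken from 6 lists, with 53 of 59 genes measured. Under the fit used here, limma called none of the 53 for both hairpins against luciferase, where 7.9% of all genes were called. At an unadjusted p below 0.05, 7 were higher (13.2%) and 2 lower (3.77%), where 14.5% of all genes were higher and 9.7% lower. The median difference over the 53 genes was 0.06, and over all genes 0.00.

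The list of H3 lysine 9 methylation, 11 genes, had 9 genes above and 2 below the luciferase mean and a median difference of 0.16. Of these 11, 4 were higher at an unadjusted p below 0.05 (36.4%, against 14.5% of all genes) and none was called. Suv39h1, an X-linked methyltransferase gene, had the smallest p: it was at 7.54 and 7.67 with hairpin 1, 7.50 and 7.79 with hairpin 2, and 7.23, 7.31 and 7.31 with luciferase. All knockdown arrays lay above the controls, with a difference of 0.34 ± 0.092 (SE, limma adjusted p = 0.0506). It passed under 5 of 17 alternatives, at 0.72 with the stricter filter, 0.41 with the mean and 0.46 with a median polish of probe sets, 0.35 after quantile normalization, and 0.42 without hairpin 2 replicate 1.

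In the list of HUSH and related genes 3 of 5 were measured, and none was called. They were Tasor (-0.38), Pphln1 (0.17) and Resf1 (-0.14), so the list median of -0.14 is the value of Resf1. Tasor, on chromosome 14, encodes the scaffold subunit of the complex. It was at 10.11 and 9.84 with hairpin 1, 10.03 and 10.04 with hairpin 2, and 10.30, 10.64 and 10.19 with luciferase. The knockdown arrays lay below the controls, with a difference of -0.38 ± 0.118 (SE, limma adjusted p = 0.0848), and luciferase replicate 2 was the highest. Tasor passed under 4 of 16 alternatives: -0.40 with the stricter filter, -0.41 after quantile normalization, -0.43 after centring and -0.38 with another spread model. It was at -0.24 without luciferase replicate 2, -0.17 with the mean and -0.16 with a median polish of probe sets.

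None was called among 7 measured genes of H3.3 deposition (median -0.00), 9 of zinc finger proteins, mostly of the KRAB type, and TRIM partners (0.01), 15 other chromatin repressors of retroelements (0.05) and 8 genes that restrict retroelement RNA and DNA (0.10). The gene with the smallest p in each was Ubn1, a partner of the H3.3 chaperone HIRA (0.29, limma adjusted p = 0.104), Zfp57, a KRAB zinc finger gene that guards imprints (-0.17, adjusted p = 0.268), Hells, a chromatin remodeller gene that aids DNA methylation (-0.31, adjusted p = 0.124), and Mov10, an RNA helicase gene that restricts retroelements (0.21, adjusted p = 0.105). Mov10, on chromosome 3, was at 11.21 and 11.25 with hairpin 1, 10.95 and 10.96 with hairpin 2, and 10.89, 10.89 and 10.86 with luciferase. The hairpin 1 arrays were highest and those of hairpin 2 stood just above the controls. Mov10 was the 1 gene of the 53 called with hairpin 1 alone (0.35, limma adjusted p = 0.0428), where 5.89% of all genes were called. With hairpin 2 alone limma called none of the 53, where 3.79% of all genes were called. At an unadjusted p below 0.05 hairpin 2 gave 5 higher (9.43%) and 1 lower (1.89%), where 11.8% of all genes were higher and 6.9% lower. The difference of Mov10 between the hairpins was 0.28 (adjusted p = 0.421). Mov10 passed for both hairpins under 3 of 17 alternatives and Ubn1 under 3.

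**Figure D5:**
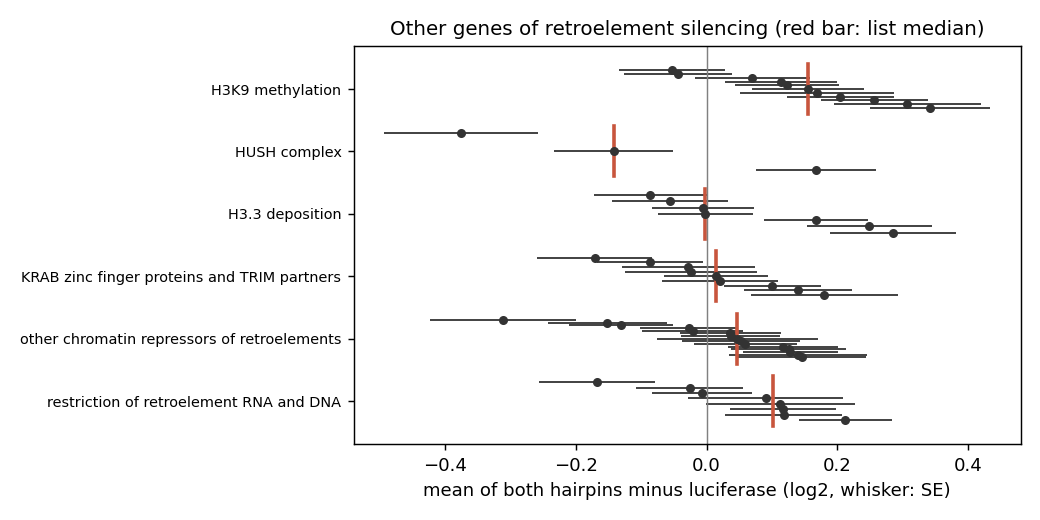
Mean of both hairpins minus luciferase (log2, horizontal axis) for the 53 measured genes of 6 lists (rows); points are genes, whiskers are the SE and red bars are list medians. The genes lie between -0.38 (Tasor) and 0.34 (Suv39h1), and list medians between -0.14 and 0.16.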

How the data were processed

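Per the labels, biotin-labelled targets made from total RNA were hybridised to exon arrays. The authors deposited log2 values of exon-level probe sets, made, per the submitters' processing notes, by RMA under R 2.11.1. Which RMA package, genome build and filters were used is not given in the sources used here, and no positions are printed. Because RMA gives all arrays 1 distribution, a change shared by most transcripts would not be seen. Array medians were 6.03 to 6.07. The number of arrays limits the precision.

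Symbols came from the platform annotation (311384 probe sets with 1 symbol, 6385 with several, 883569 with none); 45560 older ones were updated through RefSeq synonyms (GRCm38.p6), none of them of the 10 genes. Chromosomes are from the same table. A gene value was the median of at least 3 probe sets with 1 symbol whose mean exceeded the median of all probe sets (6.02). limma 3.58.1 (lmFit and eBayes, R 4.3.3) was run on all 7 arrays, with Benjamini-Hochberg adjustment over 16353 genes. Alternatives were other filters, summaries, scalings and spread models, a replicate block, fewer groups, symbols as written and leaving out each array. Named were all 10 genes, Mettl3, the gene with the smallest p of each list where none was called, and called markers. Named too were the 5 profiles nearest Morc1 among the symbols kept for that ranking. The genes and lists were chosen with earlier results of these data known. Slides and scans were not used here.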

Additional observations from a re-analysis of the deposited data

Results flagged for a closer look

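Tagln, a contractile protein gene used here as a fibroblast marker, differed between the hairpins by the test of the difference itself. It was at 8.31 and 8.08 with hairpin 1, 7.43 and 7.31 with hairpin 2, and 6.98, 7.01 and 7.03 with luciferase. Hairpin 1 lay 0.83 above hairpin 2 (95% interval 0.58 to 1.07, limma adjusted p = 0.0438), with both hairpin 1 arrays above both hairpin 2 arrays. It passed under 4 of 18 alternatives and lost the call under 14. It was at 0.23 without the filter on dim probe sets (adjusted p = 0.861), 0.38 with the stricter filter (0.264), 0.31 with the mean (0.354) and 0.32 with a median polish of probe sets (0.291). Without 1 array it was 0.72 (hairpin 1 replicate 1) to 0.94 (hairpin 1 replicate 2), with the call lost for each of the 7 arrays left out (adjusted p 0.0635 to 0.335). The groups hold 2 or 3 arrays, too few to search for single arrays that stand apart.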

How the results depend on the processing

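The difference of Morc1 from luciferase was -1.34 to -0.88 for both hairpins, -1.33 to -0.83 for hairpin 1 and -1.37 to -0.93 for hairpin 2 over the alternatives run. For both hairpins (1292) the count was 484 without the filter, 2840 with the mean, 2469 with a median polish, and 605 to 1098 when 1 array was left out. For hairpin 1 (964) it was 320, 2259 and 2072, with 1503 under the stricter filter and 271 to 729 without 1 array. For hairpin 2 (619) it was 92, 1626 and 1439, with 1073 under the stricter filter and 63 to 577 without 1 array. Between hairpins (17) it was 0, 79 and 76, with 34 under the stricter filter, 29 with another spread model, 2 with only those 4 arrays, and 0 to 4 without 1 array. Of the 53 genes in lists (0 called), 3 passed under the stricter filter, 4 with the mean, 4 with a median polish, 2 after quantile normalization, 1 after centring, 3 with another spread model and 0 to 1 without 1 array. Counts moved over 1.5 times on leaving out luciferase replicate 1 or 3, hairpin 1 replicate 1 or either hairpin 2 replicate (both hairpins), luciferase replicate 1 or either hairpin 1 replicate (hairpin 1), luciferase replicate 1 or 3 or either hairpin 2 replicate (hairpin 2), and any array (between hairpins). The causes were not tested.

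With the replicate number as a block, counts were 540, 460, 208 and 3, and with the numbers of hairpin 2 crossed, a choice made after the data were seen (correlation -0.177 between same-numbered hairpin arrays), 542, 389, 151 and 0. The samples share a number, and nothing in the labels pairs them; Morc1 was at -1.34 for both hairpins under either block. Differences between hairpins that turned sign, none of them called, are given as the range without 1 array: Morc1 -0.079 to 0.13, Morc2a -0.055 to 0.057, Morc4 -0.23 to 0.079, Atrx -0.058 to 0.093 and Zfp809 -0.29 to 0.0395. Morc4 was at 0.0026 under the stricter filter. Over all alternatives the differences of both hairpins from luciferase had either sign for Morc2a (-0.13 to 0.12), Atrx (-0.096 to 0.15), Daxx (-0.14 to 0.047) and Mphosph8 (-0.014 to 0.13). Centring moved the split of calls for both hairpins to 696 higher and 703 lower, against 904 and 388.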
